A study of Mus musculus with 4 samples.

Results

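Serine synthesis and folate-dependent one-carbon enzymes were followed in cultures of the mouse microglial cell line N9 treated with nimodipine, a calcium channel blocker of the dihydropyridine class that acts on L-type channels. The 9 genes were listed by name from their place in the pathway, with earlier results of these arrays known: Phgdh, Psat1, Psph, Shmt1, Shmt2, Mthfd1, Mthfd2, Mthfd1l and Aldh1l2. All 9 were measured, each by 1 probe set with a single gene symbol, out of 22180 genes. There were 4 arrays: 2 from cells given vehicle, 1 from cells at 10 µM nimodipine and 1 from cells at 20 µM nimodipine. All cells were grown in DMEM with fetal bovine serum, penicillin and streptomycin; the exposure time and the composition of the vehicle are not given in the sources used here. The labels speak of a respective vehicle without saying which vehicle array belongs to which dose, and they do not say that the arrays came from separate cultures. The p-values therefore describe the spread among these arrays alone, and that spread may be technical.

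Mammalian cells make serine from the glycolytic intermediate 3-phosphoglycerate in a short chain of reactions. Phosphoglycerate dehydrogenase oxidises it, phosphoserine aminotransferase adds the amino group and phosphoserine phosphatase releases serine. Serine hydroxymethyltransferases then move a carbon from serine to tetrahydrofolate and leave glycine. This carbon is oxidised in parallel enzyme sets of the mitochondrion and the cytosol, and it is used for purines, thymidylate, methionine and mitochondrial initiator tRNA. Several genes of the pathway are known targets of ATF4, the transcription factor of the integrated stress response.

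At 10 µM, 5 of the 9 genes had log2 expression above the vehicle mean, and 4 lay below it. The higher genes were Phgdh, Psph, Shmt2, Mthfd2 and Aldh1l2. The lower genes were Psat1, Mthfd1l, Shmt1 and Mthfd1. Aldh1l2 and Psph rose in the test across all genes, by 2.07 ± 0.15 and 1.24 ± 0.15 on the log2 scale (limma SE), and 0 of the 9 fell. At 20 µM the differences lay between -0.23 and 0.29, and 0 of the 9 passed the test. Of all genes, 0.509% rose and 1.08% fell in the test at 10 µM, and 0% passed at 20 µM. By branch, 1 of 3 serine synthesis genes, 1 of 4 mitochondrial folate genes and 0 of 2 cytosolic folate genes passed at 10 µM. A difference between the branches was not tested. In bulk RNA, fewer cells expressing a gene and less RNA per cell cannot be told apart.

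Promoter sequences were set beside these values to show what the start regions of genes on both sides of the vehicle level hold. RefSeq windows of 300 bases (250 before and 50 after a transcript start, GRCm38.p6) were found for 8 of the 9 genes, with 9 windows in all because Psat1 has 2. Aldh1l2 was not matched. The windows of 3 genes are printed, 5′ to 3′ on the gene's strand, with CCAAT boxes on either strand in capitals (CCAAT, or ATTGG where the box lies on the opposite strand). Psph is shown because it rose, and Shmt2 and Shmt1 because these isoenzymes lay on opposite sides of the vehicle arrays at 10 µM.

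Psph, chr5:129787204-129787503, minus strand: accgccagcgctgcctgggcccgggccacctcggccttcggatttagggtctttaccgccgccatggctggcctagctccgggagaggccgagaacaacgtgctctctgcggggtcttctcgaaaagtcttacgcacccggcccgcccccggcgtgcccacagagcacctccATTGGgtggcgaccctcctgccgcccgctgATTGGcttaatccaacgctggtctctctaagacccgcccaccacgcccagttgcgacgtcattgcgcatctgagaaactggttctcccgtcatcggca

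Shmt2, chr10:127522395-127522694, minus strand: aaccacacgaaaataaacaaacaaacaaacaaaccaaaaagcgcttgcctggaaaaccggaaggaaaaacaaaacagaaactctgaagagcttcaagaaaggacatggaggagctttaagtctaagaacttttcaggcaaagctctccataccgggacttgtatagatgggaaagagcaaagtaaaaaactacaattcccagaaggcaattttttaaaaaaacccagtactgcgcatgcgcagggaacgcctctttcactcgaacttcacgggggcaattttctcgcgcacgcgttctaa

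Shmt1, chr11:60811216-60811515, minus strand: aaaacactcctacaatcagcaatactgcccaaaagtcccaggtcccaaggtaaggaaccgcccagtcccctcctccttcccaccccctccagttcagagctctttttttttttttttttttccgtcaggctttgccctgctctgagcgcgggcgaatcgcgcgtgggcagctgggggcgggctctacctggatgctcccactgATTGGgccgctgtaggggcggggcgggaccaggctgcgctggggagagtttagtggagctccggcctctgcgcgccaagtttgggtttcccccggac

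The Psph window holds 2 CCAAT boxes, both on the opposite strand, beginning 78 and 48 bases before the start. The Shmt1 window holds 1, 47 bases before the start, and the Shmt2 window holds 0. Of the windows not printed, that of Mthfd2 holds 3, that of Phgdh 2 and that of Mthfd1 1. The Psat1 windows hold 3 and 0, and the Mthfd1l window 0. Together 6 of the 9 windows, from 6 of the 8 genes, had a CCAAT box, which 37.4% of all 32851 windows hold. The core of the CEBP-ATF response element through which ATF4 acts, searched as TGATGNAA on both strands, was in 0 of the 9 windows and in 3.97% of all windows. The palindromic E-box CACGTG was in 0 of the 9 and in 7.15% of all. These counts describe the letters of these windows only. For Psph, Mthfd2, Mthfd1, Mthfd1l and the second Psat1 window, the start used is not the outermost start of the RefSeq gene. The GC content was 65.0% in the Psph window, 42.7% in the Shmt2 window and 60.7% in the Shmt1 window. The median was 59% over the 9 windows and 52.7% over all windows.

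Of the serine synthesis genes, Phgdh encodes phosphoglycerate dehydrogenase, the first enzyme of the chain. Its log2 expression was 7.925 and 7.9995 with vehicle, 8.491 at 10 µM and 8.014 at 20 µM. The 10 µM array stood above the rest, while the 20 µM array exceeded the higher vehicle array by 0.014. The difference at 10 µM was 0.53 ± 0.15 (SE), or 1.44-fold, and missed the threshold (limma adjusted p = 0.162). Psph encodes phosphoserine phosphatase, the last enzyme. It stood at 7.02 and 6.92 with vehicle, 8.21 at 10 µM and 6.99 at 20 µM. Only the 10 µM array was high, and the 20 µM array lay between the vehicle arrays. Psph was 2.36-fold higher at 10 µM (limma adjusted p = 0.0286), the 71st largest increase of the 22180 genes. At 20 µM the difference was 0.02 ± 0.15.

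Psat1, which encodes the aminotransferase between these enzymes, had nimodipine values close to the vehicle values. It stood at 9.79 and 9.80 with vehicle, 9.75 at 10 µM and 9.69 at 20 µM. Both nimodipine arrays lay below the vehicle arrays, by small margins. The differences were -0.05 ± 0.14 and -0.10 ± 0.14, with limma adjusted p values of 0.919 and 0.913. The change of Psph at 10 µM exceeded that of Psat1 by 1.28 on the log2 scale. The same contrast gave 0.12 at 20 µM, and -0.11 when vehicle 2 was set against vehicle 1. This contrast between genes was not tested.

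**Figure D1:**
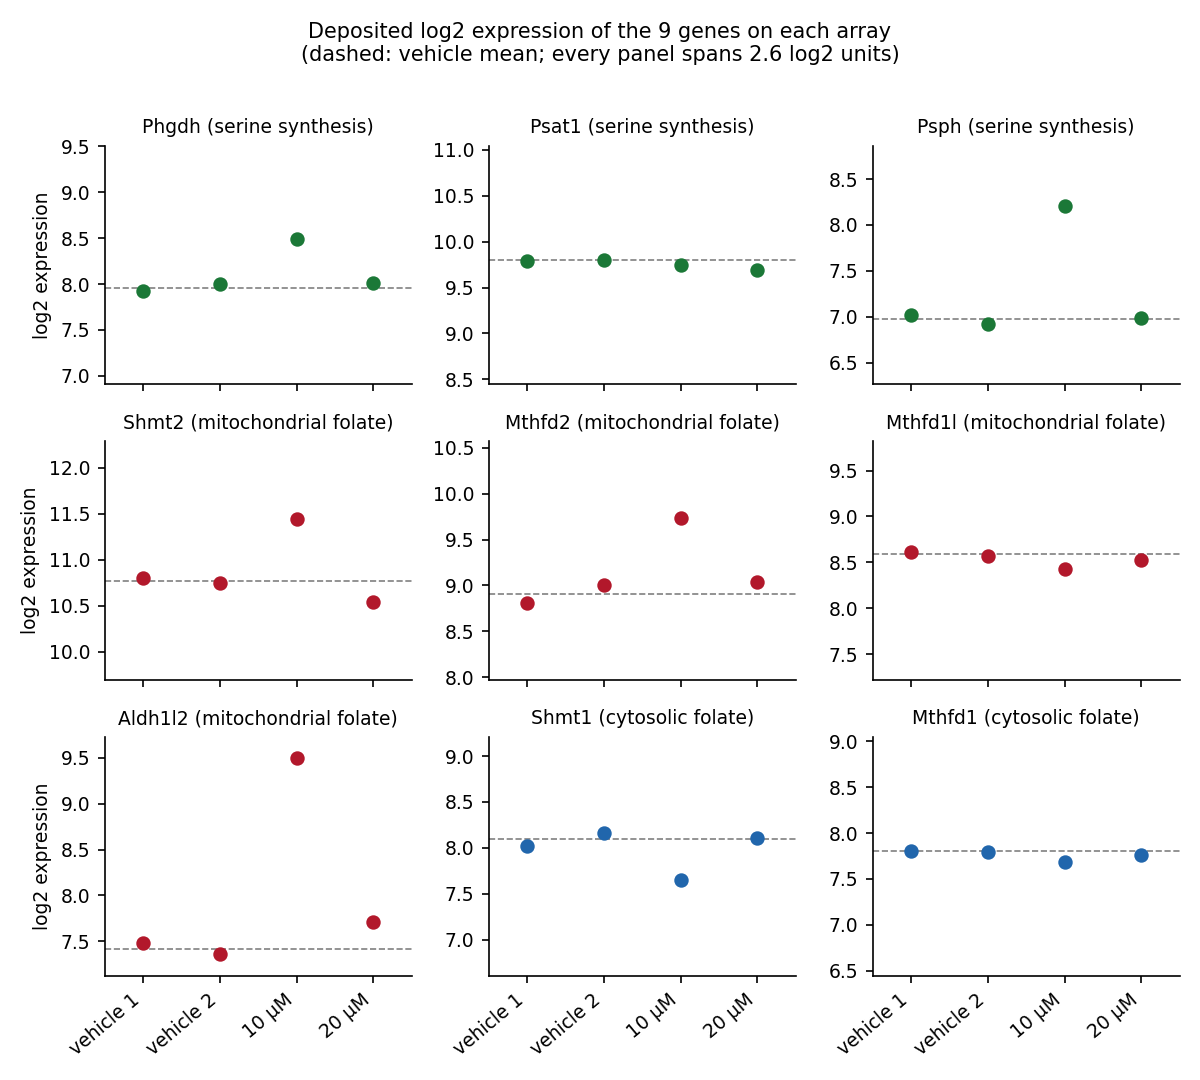
Deposited log2 expression (y axis) of each of the 9 genes on the 4 arrays (x axis), 1 point per array, with the vehicle mean as a dashed line and all panels spanning the same number of log2 units. Aldh1l2 and Psph stand out at 10 µM, at 9.49 and 8.21, and the 20 µM points lie near the vehicle points.

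In the mitochondrial branch, Shmt2 encodes the serine hydroxymethyltransferase that splits serine in the organelle. Its log2 expression was 10.80 and 10.74 with vehicle, 11.44 at 10 µM and 10.54 at 20 µM. The 10 µM array was above both vehicle arrays and the 20 µM array below both. The differences were 0.67 ± 0.15 and -0.23 ± 0.15, with limma adjusted p values of 0.103 and 0.794. Mthfd2 encodes the dehydrogenase and cyclohydrolase that oxidises the one-carbon unit. It stood at 8.805 and 9.001 with vehicle, 9.737 at 10 µM and 9.036 at 20 µM. The 10 µM array was again the high one. Mthfd2 was 1.78-fold higher there and missed the threshold (difference 0.83 ± 0.16, limma adjusted p = 0.0758). It passed with dim probe sets left out (0.0188), with a variance trend (0.0136) and with cyclic loess scaling (0.0473). Shmt2 passed with the first and second of these settings (0.0287 and 0.0120).

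Mthfd1l encodes the synthetase that releases formate for export, the step after Mthfd2. It stood at 8.61 and 8.57 with vehicle, 8.43 at 10 µM and 8.52 at 20 µM. Both nimodipine arrays were lower than both vehicle arrays, by less than 0.2 on the log2 scale. The differences were -0.16 ± 0.14 and -0.07 ± 0.14 (limma adjusted p = 0.652 and 0.947). Aldh1l2 encodes the mitochondrial formyltetrahydrofolate dehydrogenase, which oxidises the formyl group to carbon dioxide. It stood at 7.48 and 7.36 with vehicle, 9.49 at 10 µM and 7.71 at 20 µM. Aldh1l2 was the largest difference among the 9 genes, with the 14th largest increase of all 22180 genes at 10 µM (limma adjusted p = 0.00906). Its 20 µM value was also above both vehicle arrays, by 0.23, but the difference of 0.29 ± 0.15 missed the threshold (limma adjusted p = 0.773). Between the doses Aldh1l2 was lower at 20 µM by 1.78 ± 0.17, and this difference passed the test (limma adjusted p = 0.0309).

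In the cytosolic branch, Shmt1 encodes the cytosolic serine hydroxymethyltransferase. It stood at 8.02 and 8.17 with vehicle, 7.65 at 10 µM and 8.11 at 20 µM. The 10 µM array was low, and the 20 µM array lay between the vehicle arrays. The difference at 10 µM was -0.44 ± 0.15 and missed the threshold (limma adjusted p = 0.230). Mthfd1 encodes the trifunctional cytosolic enzyme that interconverts the one-carbon forms of folate. It stood at 7.81 and 7.80 with vehicle, 7.69 at 10 µM and 7.76 at 20 µM. Both nimodipine arrays were slightly below both vehicle arrays. The differences were -0.12 ± 0.14 and -0.04 ± 0.14, with limma adjusted p values of 0.757 and 0.970.

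Setting each mitochondrial enzyme against its cytosolic relative gave contrasts of 0.95 or more on the log2 scale at 10 µM for 3 of 4 pairs. At 10 µM the difference of Shmt2 exceeded that of Shmt1 by 1.11 on the log2 scale, beside -0.25 at 20 µM and -0.21 for vehicle 2 against vehicle 1. The difference of Aldh1l2 exceeded that of the cytosolic Aldh1l1 by 2.13 at 10 µM and 0.54 at 20 µM, beside -0.06 between the vehicle arrays. The difference of Mthfd2 exceeded that of Mthfd1, whose cytosolic enzyme includes the same activities, by 0.95 at 10 µM and 0.17 at 20 µM, beside 0.21 for vehicle 2 against vehicle 1. Aldh1l1 itself stood at 5.99 and 5.93, then 5.91 and 5.72. Mthfd1l and Mthfd1 differed from each other by only -0.04 and -0.03 in their responses at the lower and the higher dose. Mthfd2l, the close relative of Mthfd2, stood between 4.27 and 4.42 on the 4 arrays. All 4 values were below 5.04, the median over the whole array, so no fold is given. These contrasts between genes were not tested.

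**Figure D2:**
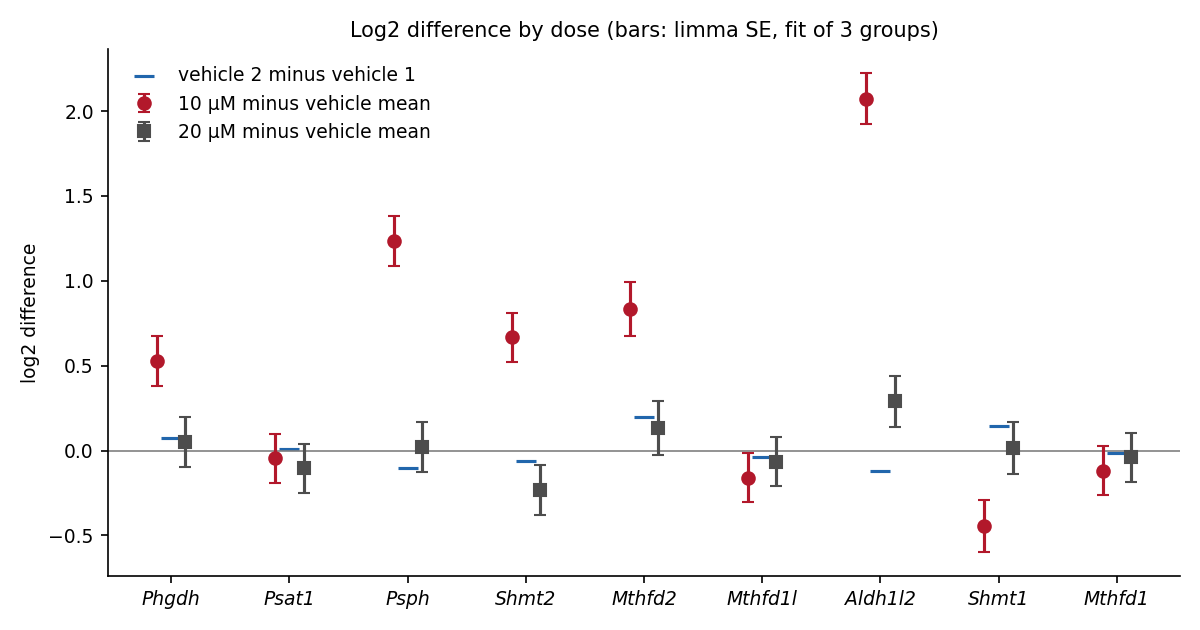
Log2 difference from the vehicle mean (y axis) for the 9 genes at 10 µM (circles) and 20 µM (squares), with the limma standard error from the fit of 3 groups as bars and vehicle 2 minus vehicle 1 as dashes. At 10 µM the genes run from -0.44 for Shmt1 to 2.07 for Aldh1l2, and at 20 µM from -0.23 to 0.29.

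Read against all genes, the counts at 10 µM were as follows. Of the 9 genes, 2 were higher by 1 or more on the log2 scale and 0 were lower by as much, where 0.514% and 1.06% of all genes were. In the fit of 3 groups, 2 of 9 rose (0.509% of all genes did) and 0 of 9 fell (1.08% of all genes did). At an unadjusted p under 0.05 there were 6 of 9, and 3749 of all genes. This fit takes its spread from the vehicle pair, with 1 residual degree of freedom, and assumes that a lone nimodipine array varies like that pair. The median difference of the 9 genes was 0.53, beside 0.01 over all genes. It was 0.53 for the serine synthesis genes, 0.75 for the mitochondrial and -0.28 for the cytosolic folate genes. All 9 lay outside the range of the vehicle arrays at 10 µM, 5 above (39.1% of all genes) and 4 below (35.4% of all genes). Such non-overlap was common in the whole table, and the margins among the 9 ran from 0.040 for Psat1 to 2.02 for Aldh1l2.

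At 20 µM, 0 of the 9 genes differed by 1 or more in either direction, as did 0.0361% of all genes upward and 0.0496% downward. The test called 0 of the 9 and 0% of all genes. At an unadjusted p under 0.05 it gave 0 of the 9 and 1418 of all genes. The median difference was 0.02, and -0.00281 over all genes. Above both vehicle arrays were 3 of the 9 (34.5% of all genes), and below both were 4 (35.1%). Psph and Shmt1 lay between. On both nimodipine arrays, Phgdh, Mthfd2 and Aldh1l2 were above both vehicle arrays (19.2% of all genes), and Psat1, Mthfd1l and Mthfd1 below both (18.2%). Both doses share the vehicle arrays.

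Between the doses, Aldh1l2 was the 1 gene of the 9 that differed, among 0.144% of all genes that were called higher at 10 µM. Psph was lower at 20 µM than at 10 µM by 1.22 ± 0.17 and missed the threshold (limma adjusted p = 0.0675). Over the settings tried, this p ranged from 0.0122 to 0.0840. With both nimodipine arrays taken as 1 group of 2 against the vehicle pair, 0 of the 9 genes and 0% of all genes passed. At an unadjusted p under 0.05 there were 0 of the 9 and 1191 of all genes. The limma adjusted p values of the 9 lay between 0.792 and 0.916. In that comparison Aldh1l2 differed by 1.18 ± 0.53 and Psph by 0.63 ± 0.37, where the spread includes the gap between the doses.

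**Figure D3:**
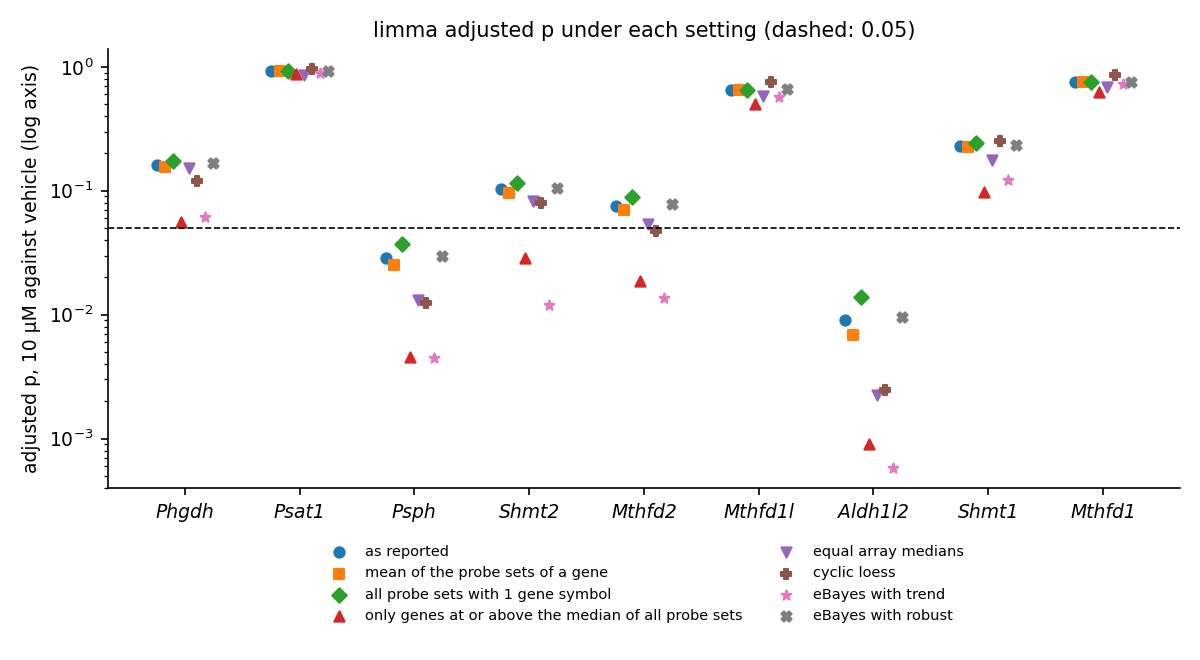
Adjusted p of 10 µM against vehicle (y axis, log scale) for the 9 genes under the fit as reported and 7 other settings, with the threshold of 0.05 as a dashed line. Aldh1l2 and Psph lie below the line under all 8, Mthfd2 under 3 and Shmt2 under 2.

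The rest of folate metabolism had small differences. Of 15 measured folate enzymes and carriers outside the 9, 0 passed limma's test at 10 µM (3 at an unadjusted p under 0.05), with 8 higher, 7 lower and a median of 0.01. Tyms, thymidylate synthase, stood at 7.21 and 7.26 with vehicle, 7.65 at 10 µM and 6.83 at 20 µM (limma adjusted p = 0.235 at 10 µM). Slc25a32, the mitochondrial folate carrier, differed by -0.39 at 10 µM, and Mtfmt, which formylates mitochondrial initiator tRNA, by -0.44. Fpgs, which adds the glutamate tail that keeps folate in the cell, differed by -0.38, but its vehicle arrays differed by 0.38. The 4 glycine cleavage genes Gldc, Amt, Gcsh and Dld lay between -0.21 and 0.20 at 10 µM, and 0 passed in limma (0 at an unadjusted p under 0.05).

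Among 11 genes of serine and glycine transport and use, 1 rose and 0 fell at 10 µM, with a median of 0.14. The gene that rose was Slc1a4, a neutral amino acid transporter that carries serine. It stood at 5.77 and 5.75 with vehicle, 7.22 at 10 µM and 5.92 at 20 µM, a 2.75-fold increase at the lower dose (limma adjusted p = 0.0204). Slc1a5, a glutamine and serine transporter, differed by 0.47 and Slc38a2, another neutral amino acid transporter, by -0.63, both without passing. De novo purine synthesis, a main user of formyl folate, had 11 measured genes, of which 10 were lower at 10 µM, with a median of -0.15. limma called 0 of them, with 3 at an unadjusted p under 0.05. Gart, a trifunctional enzyme of that pathway, differed by -0.42, and Adss by -0.62. In the methionine cycle, which takes up methyl folate, 5 of 10 genes were higher and 5 lower, and limma called 0 (3 at an unadjusted p under 0.05). Its folate-dependent enzyme Mtr, methionine synthase, differed by -0.51.

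Glycolysis supplies the precursor of serine, and its 12 measured genes were all lower at 10 µM, with a median of -0.55; 1 of them, Hk2, passed the test. The ATF4 gene itself stood at 8.86 and 8.84 with vehicle, 10.33 at 10 µM and 8.87 at 20 µM (limma adjusted p = 0.0197 at 10 µM). Of 13 other ATF4 targets of amino acid supply, all were higher at 10 µM, 6 rose in the test, and the median was 0.88. Asns, asparagine synthetase, was 2.85-fold higher and Cth, cystathionine gamma-lyase, 9.42-fold. At 20 µM 5 of these 13 lay above the vehicle mean and 8 below (median -0.03). The list of 13 was made with knowledge of earlier results on these arrays and is not independent evidence of its direction. Among amino acid transporters outside it, Slc1a4 differed by 1.46 and Slc38a2 by -0.63 at 10 µM. Atf4 itself belongs to a list of 12 regulators of serine and one-carbon genes, of which 7 were higher and 5 lower at 10 µM. Those differences ran from -0.95 for Eif2ak2 to 3.36 for Ddit3.

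**Figure D4:**
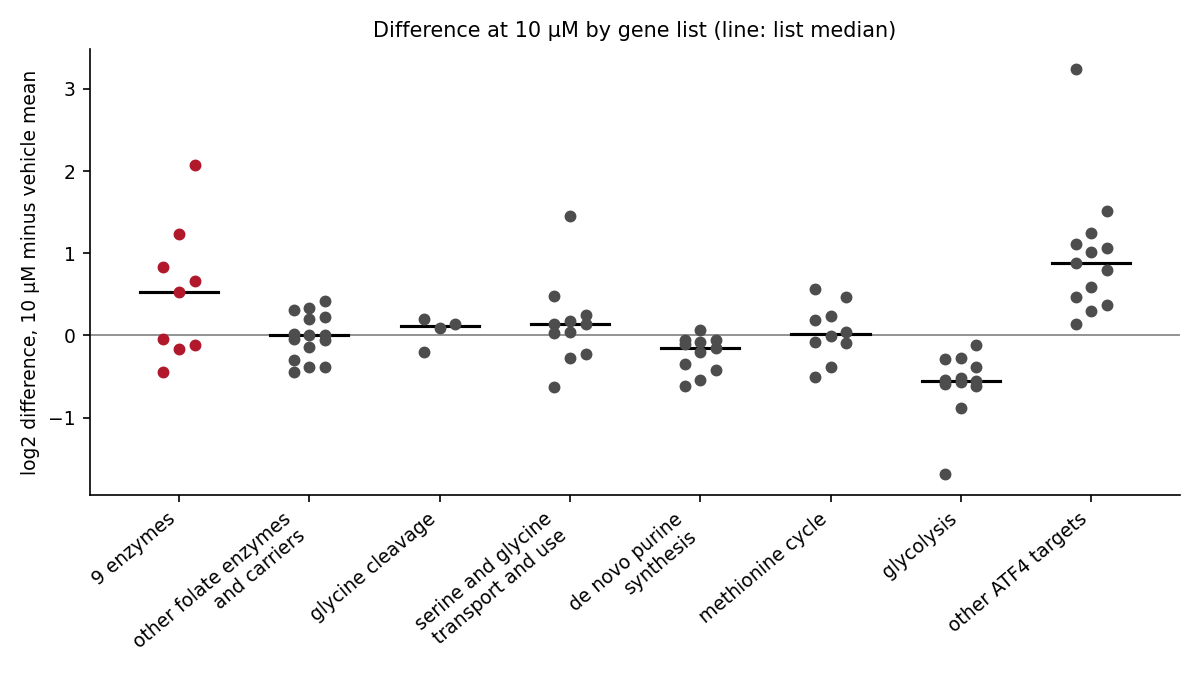
Log2 difference between the 10 µM array and the vehicle mean (y axis) for every measured gene of 8 lists (x axis), 1 point per gene, with the list median as a line. The 9 enzymes have a median of 0.53, the other ATF4 targets 0.88, glycolysis -0.55, and the other folate genes lie around 0.

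Markers of dividing cells also moved with the 10 µM array. Of 5 measured, all were lower, 3 fell in the test (Kif11, Plk1 and Top2a) and the median was -1.06; at 20 µM the median was -0.01. The part of this in the values of the folate genes was not tested. Of 11 microglial markers, 10 were lower at 10 µM (median -0.15) and 5 were higher at 20 µM. Of the same 11, 9 averaged 5.04 (the array-wide median) or more, among them Csf1r and Trem2, while P2ry12 and Tmem119 were below it on every array. Astrocyte markers reached it for 1 of 6, neuronal for 3 of 6, oligodendrocyte for 4 of 5 and fibroblast or endothelial for 2 of 6. Of all 22180 genes, 12764 reached it, so these counts do not show which cell types were present. limma called 0 of these 34 cell type markers at either dose, with 5 at an unadjusted p under 0.05 at 10 µM and 0 at 20 µM.

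The gene with the largest difference, Aldh1l2, was set beside the rest of the table by the distance between profiles over 3 values (vehicle 2 minus vehicle 1, and each dose minus the vehicle mean). Its nearest neighbours were Sh2d6, Wdr66, Fcgr1, Il23a, Cyb5r1 and Agap1, at distances of 0.343 to 0.425 log2 units. Sh2d6, an SH2 domain protein, differed by 2.07 at 10 µM and 0.51 at 20 µM, from vehicle values under the array-wide median. Fcgr1, a high-affinity immunoglobulin receptor, differed by 2.37 and 0.22. Il23a, a subunit of interleukin 23, differed by 2.38 and 0.04. With 4 arrays this likeness mostly reflects the 10 µM value.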

How the data were processed

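Affymetrix arrays were read as log2 values, 1 per probe set, which the authors deposited. The submitters' processing notes name RMA and Affymetrix Expression Console 1.2.1.20. RMA corrects background, quantile-normalizes and summarises probes, so a shift shared by most genes is not visible. Of 41345 probe sets, 23521 had exactly 1 gene symbol in the platform annotation; the highest-mean probe set per gene was kept, giving 22180 genes. Array medians lay between 5.02 and 5.06. Precision is limited by having 4 arrays.

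limma 3.58.1 (R 4.3.3; lmFit, eBayes) was fitted across all genes with Benjamini-Hochberg adjustment over them and a threshold of 0.05. A fit of 3 groups gave each dose against vehicle and the doses against each other. A second fit set both nimodipine arrays against both vehicle arrays. Fold counts used a difference of 1 on the log2 scale. Fits were tested on simulated data. The members and lists were chosen with earlier results of these data known. Named genes were all 9 members, up to 6 of each list by absolute difference at 10 µM, Mthfd2l and Aldh1l1, and the 6 nearest profiles to the leading member. Alternatives were other probe set rules, a filter on dim probe sets, array scalings, eBayes options, thresholds and leaving out arrays. Genes without a probe set of a single symbol were not analysed here.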

Additional observations from a re-analysis of the deposited data

Results flagged for a closer look

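The difference between the doses was tested in the fit of 3 groups, and it passed for Aldh1l2, which was lower at 20 µM than at 10 µM (log2 difference -1.78 ± 0.17, limma adjusted p = 0.0309). Over the settings tried, the adjusted p ranged from 0.00318 to 0.0430. The comparison rests on 1 array per dose.

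Shmt2 lay on opposite sides of both vehicle arrays at the 2 doses. The difference of 20 µM from 10 µM was -0.90 ± 0.17 (limma adjusted p = 0.108, from 0.0106 to 0.126 over the settings tried).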

How the results depend on the processing

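No paired analysis was possible because the dose arrays carry no replicate numbers that match the vehicle arrays. The count of the 9 genes called at 10 µM was 2. It rose to 3 with cyclic loess or a threshold of 0.1, and to 4 under a filter on dim probe sets or a variance trend. The count between the doses was 1. It was 3 under that filter or trend, and 2 with equal array medians, cyclic loess or a threshold of 0.1. Over all genes, the calls between the doses numbered 70 of 22180, and 738 of 12764 under the filter. They numbered 731 with the trend, 272 with equal medians, 243 with loess and 333 at a threshold of 0.1. With nimodipine as 1 group the count was 0, and leaving out 1 array in turn gave 0 to 2, the 2 (Aldh1l2 and Psph) without the 20 µM array. At 1.5-fold, 4 genes differed at 10 µM in place of 2, all of them higher. Of all 22180 genes, 531 were higher and 970 lower by as much. At a log2 difference of 1 these numbers were 114 and 234. Over all genes, the calls at 10 µM numbered 353 of 22180, but 1282 of the 12764 genes kept with dim probe sets left out. Of all 22180 they numbered 1175 with a trend, 654 with equal medians, 558 with loess and 807 at a threshold of 0.1. With every probe set they numbered 227 of 23521 probe sets. The causes were not tested.

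Values near 0 turned direction. At 20 µM Psph became -0.0092 and Shmt1 -0.013 with equal array medians, and Mthfd1 became 0.0043 with cyclic loess. With 1 array left out in turn, nimodipine against vehicle ranged from -0.44 to 0.016 for Shmt1 and from -0.23 to 0.67 for Shmt2, turning direction without the 10 µM array. Of the other comparisons of single genes, 304 kept their direction and side of the threshold and 15 newly passed. The fit of 3 groups could not be tested without 1 vehicle array, which leaves no residual degrees of freedom. The deposited values carry no detection calls.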
